A study of Mus musculus with 72 samples.

Results

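The 4 mouse opioid receptor genes, Oprm1 (mu), Oprd1 (delta), Oprk1 (kappa) and Oprl1 (nociceptin), were followed in bulk RNA-seq of the right brain hemisphere of 72 C57Bl/6NTac pups (C57Bl/6 in the labels), whose tissue the submitters' design text names as cortex. They were picked by symbol, as the rows of the count matrix whose gene ID carries one of these names, and made up 4 of 55401 genes. All 4 passed the filter on low counts in every window. Morphine or saline was given in 3 windows. In the PND1 window, dams carried an osmotic minipump with morphine (10 mg/kg/day) or with saline, and pups were dissected at PND1, 6 h after their discovery. This gave 4 F and 6 M morphine pups and 7 F and 7 M saline pups, where F and M are the gender code of the labels. In the PND14 window, pups were injected with morphine (10 mg/kg) or saline 2 times a day up to day 14, and in the 3-Tri window both exposures followed each other. These 2 windows held 6 pups for each drug and gender, taken 6 h after the last injection. The genotype label is the same in all groups, and saline pups went through the same pump or injections as their morphine counterparts.

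Opioid receptors are G protein-coupled receptors of neurons. They act through inhibitory G proteins, which lower cyclic AMP, open inwardly rectifying potassium channels and close voltage-gated calcium channels, so that a neuron that carries them fires less and releases less transmitter. The mu receptor is the main target of morphine and is needed for its analgesic and rewarding effects. The delta receptor mainly binds enkephalins and the kappa receptor dynorphins, whereas the nociceptin receptor binds nociceptin and has little affinity for morphine. In the rodent forebrain, mu receptors are known from striatal patches, thalamus and habenula, delta receptors from cortex and striatum, and kappa receptors from claustrum and striatum.

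On mm10 (GENCODE M21), Oprm1 spans chr10:6758506-7038198 on the plus strand, with 31 annotated transcripts and 8037 bases of merged exons. Its span overlaps Ipcef1 and Gm10945 on the minus strand, and 96 exonic bases are shared with Ipcef1. Whether the counting used strand is not given in the sources used here, and reads from those bases cannot be assigned to either gene. Oprd1 lies at chr4:132110726-132144486 on the minus strand with 1 transcript and 4021 exonic bases. Oprk1 lies at chr1:5588466-5606131 on the plus strand with 5 transcripts and 9151 exonic bases. Oprl1, the most compact of the 4, lies at chr2:181715016-181720985 on the plus strand with 11 transcripts and 3753 exonic bases. No annotated gene overlaps these 3. Counts are per gene, so splice forms were not separated.

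The promoters are shown as a description, and whether their sequence has a part in the changes between the windows was not tested. RefSeq (GRCm38.p6) gave promoter windows for Oprd1, Oprm1 and Oprl1, and Oprk1 is named only. For each gene the 250 bases before a start that lay outside its own exons were read on the gene's strand. Other starts of Oprm1 and Oprl1, whose windows reach into their own exons, are not shown. Capitals mark GGGCGG (a GC box) or CACGTG (an E box), each searched on both strands with no overlap between the motifs found. The Oprd1 window is chr4:132144487-132144736, the Oprm1 window chr10:6788320-6788569 and the Oprl1 window chr2:181714766-181715015.
Oprd1: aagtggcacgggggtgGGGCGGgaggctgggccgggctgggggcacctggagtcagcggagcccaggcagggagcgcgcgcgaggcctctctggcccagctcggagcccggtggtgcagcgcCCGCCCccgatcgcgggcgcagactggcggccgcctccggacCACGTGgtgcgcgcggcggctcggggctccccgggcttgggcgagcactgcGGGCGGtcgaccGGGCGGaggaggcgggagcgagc
Oprm1: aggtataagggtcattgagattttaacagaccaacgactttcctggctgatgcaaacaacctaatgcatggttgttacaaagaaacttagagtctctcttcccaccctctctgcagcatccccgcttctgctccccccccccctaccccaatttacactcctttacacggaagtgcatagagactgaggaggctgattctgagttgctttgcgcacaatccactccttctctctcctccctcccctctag
Oprl1: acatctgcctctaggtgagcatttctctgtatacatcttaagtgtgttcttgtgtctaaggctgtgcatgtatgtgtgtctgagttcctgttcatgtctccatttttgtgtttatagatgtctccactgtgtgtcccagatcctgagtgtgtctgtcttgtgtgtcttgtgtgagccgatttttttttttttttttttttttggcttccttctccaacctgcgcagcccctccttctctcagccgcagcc

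The Oprd1 window held 34 CpG dinucleotides at a GC content of 80.0%, with 4 GC boxes whose first bases lay 234, 128, 35 and 23 bases before the start and an E box 86 bases before it. The Oprm1 window held 4 CpG dinucleotides at 50% GC and the Oprl1 window 3 at 44.4% GC, and neither contained GGGCGG or CACGTG. Over 32851 promoter windows of the same length, the median was 6 CpG dinucleotides (quartiles 2 and 16) and 52.4% GC, 32.7% contained GGGCGG and 6.02% contained CACGTG. None of the 3 windows contained TGACGTCA (the cyclic AMP response element, in 1.55% of windows) or TGANTCA (the AP-1 motif, in 6.75%).

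Total counts per library ranged from 20742862 to 27333125 at PND1, 4407544 to 21404819 at PND14 and 3113919 to 19938980 in 3-Tri. The fewest counts behind any receptor value were 31 for Oprd1 at PND1 and 32 for Oprk1 in 3-Tri, against at least 190 for Oprl1 and 218 for Oprm1. All 7 cortical excitatory neuron markers and all 7 striatal markers of the lists used were detected in every window, at a mean above 1 CPM in saline libraries. So were all 5 thalamic and all 4 midbrain monoamine neuron markers. Of 5 cerebellar markers, 4 were detected at PND1 and 5 at PND14 and in 3-Tri. Of 12 hindbrain and spinal cord markers, 7 were detected at PND1 and 0 at PND14 and in 3-Tri. The X- and Y-linked genes Xist and Ddx3y went against the gender label in 16 of 72 libraries, 4 of 24 at PND1, 0 of 24 at PND14 and 12 of 24 in 3-Tri, where a library was counted if the marker of the other gender was above 25% of its median in PND14 libraries of that gender. Comparisons by gender below therefore refer to libraries labelled F or M. In PND14 and 3-Tri, 8 ID numbers open the sample names, 2 for each window and drug, so that within a window the drug and the ID number cannot be told apart. Nothing in the labels says whether pups of a group shared a litter, so p-values measure the spread between these pups.

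The levels of the 4 genes separated postnatal day 1 from day 14 in every library. How many of all genes separated in the same way was not counted. Of 22010 genes tested, 84.9% passed between the PND14 and PND1 saline groups, so the separation is not read as particular to the receptors. Levels are CPM, counts relative to the library total, after TMM scaling, a normalization that equalizes the bulk of genes between libraries. In all 48 PND14 and 3-Tri libraries, Oprm1 (59.3 to 85 CPM), Oprd1 (10.0 to 17.7 CPM) and Oprk1 (10.4 to 20.4 CPM) stood above every one of the 24 PND1 libraries, where they reached 30.8, 2.69 and 9.12 CPM at most. Oprl1 was the reverse, at 59.1 to 77.1 CPM in the 48 day 14 libraries and 80.1 to 102 CPM in the 24 PND1 libraries. Morphine and saline groups overlapped for every receptor in every window. Between pups of 1 window and drug, the coefficient of variation was lowest for Oprl1, at 4.97% to 6.21%, and 5.31% to 16.9% for Oprm1, 10.3% to 18% for Oprk1 and 8.1% to 19.4% for Oprd1.

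**Figure D1:**
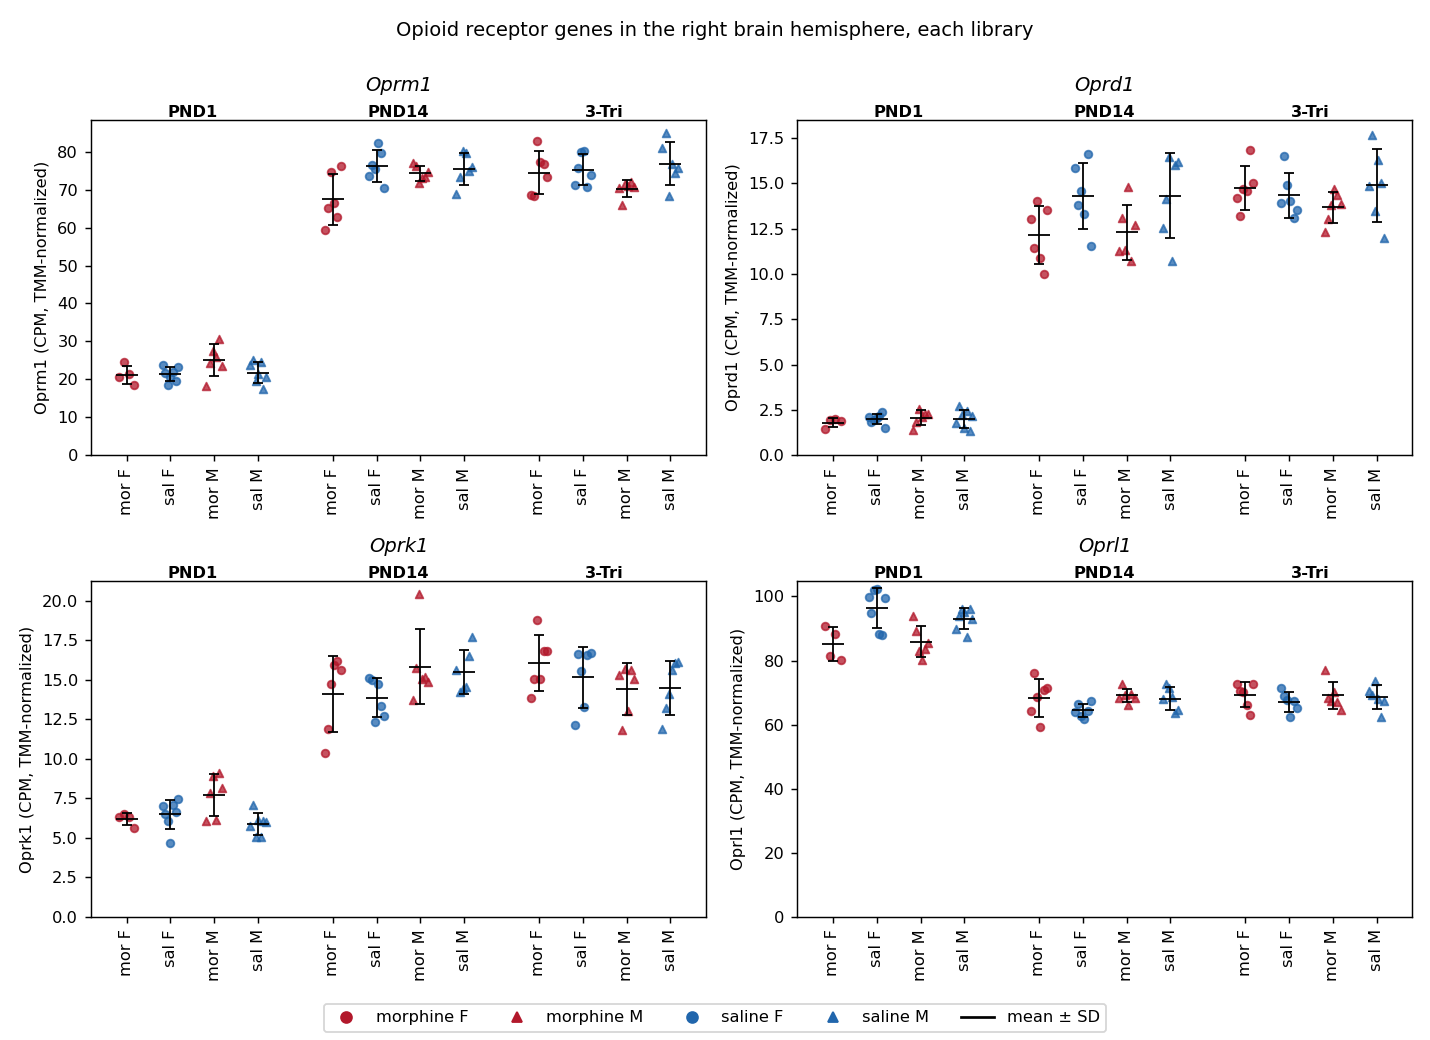
Each point is the level of a receptor gene (CPM, TMM-normalized, vertical axis) in 1 library, grouped by window, drug (mor, morphine; sal, saline) and gender code, with the mean and SD of each group. Oprm1, Oprd1 and Oprk1 are low in the PND1 libraries and Oprl1 is high, with no overlap with the PND14 and 3-Tri libraries, while morphine and saline points overlap in each window.

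Saline pups of PND14 and PND1 were compared to describe the receptors without morphine. Age, the route by which saline was given and the set of libraries cannot be told apart in this comparison. Oprm1, Oprd1 and Oprk1 rose and Oprl1 fell at PND14. In bulk tissue, fewer cells of a type and less RNA per cell cannot be told apart. Overlap between the libraries of the 2 groups is given below for each receptor and was not counted over all genes. Of the 22010 genes tested, 84.9% passed the test between the 2 saline groups, 41.7% higher and 43.2% lower, so that passing it was the rule for genes of this tissue and the 4 of 4 receptors called are read against that share.

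Oprd1, the delta receptor, had the largest change of the 4. Its lowest, median and highest levels were 10.7, 14.3 and 16.6 CPM in the 12 PND14 saline libraries, against 1.32, 2.08 and 2.69 CPM in the 14 PND1 saline libraries. The least of the PND14 values was more than the highest PND1 value, and the log2 fold change was 2.83 (SE 0.0813, 95% interval 2.67 to 2.99, 7.12-fold, adjusted p = 7.95e-44, edgeR quasi-likelihood test). Of the genes tested, 98.5% had a lower log2 fold change. The PND1 values rest on 31 to 72 counts per library, the thinnest data of the 4 genes.

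Oprm1, the mu receptor, was at 68.9, 75.6 and 82.2 CPM (lowest, median and highest) in PND14 saline libraries, against 17.5, 21.5 and 25 CPM in PND1 saline libraries. The groups were far apart, and the log2 fold change was 1.82 (SE 0.0494, 95% interval 1.72 to 1.91, 3.52-fold, adjusted p = 2.87e-45). Oprk1, the kappa receptor, was at 12.3, 14.6 and 17.7 CPM in PND14 saline libraries, against 4.68, 6.1 and 7.43 CPM in PND1 saline libraries. Here too no library overlapped, and the log2 fold change was 1.25 (SE 0.0699, 95% interval 1.11 to 1.39, 2.38-fold, adjusted p = 7.90e-27). Of the genes tested, 94.9% had a lower log2 fold change than Oprm1 and 89.8% a lower one than Oprk1.

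Oprl1, the nociceptin receptor, was the only one of the 4 that fell. It was at 61.9, 65.4 and 72.8 CPM in PND14 saline libraries, against 87.3, 95 and 102 CPM in PND1 saline libraries. Every PND14 library was below every PND1 library, with no overlap. The log2 fold change was -0.52 (SE 0.0316, 95% interval -0.58 to -0.45, 0.70-fold, adjusted p = 1.48e-24), and 27.6% of the genes tested had a lower one.

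The same directions held within each gender label. In libraries labelled F, the log2 fold changes of PND14 over PND1 saline were 2.83 for Oprd1, 1.84 for Oprm1, 1.11 for Oprk1 and -0.58 for Oprl1 (6 against 7 libraries, 78.9% of genes called). In libraries labelled M they were 2.83, 1.79, 1.4 and -0.45 in that order (6 against 7 libraries, 78.7% of genes called), and all 8 values passed the test. Whether the change differed between F and M was not tested. Over all alternative settings of the analysis, the change in both genders together stayed within 2.76 to 2.87 for Oprd1, 1.78 to 1.84 for Oprm1, 1.21 to 1.32 for Oprk1 and -0.55 to -0.49 for Oprl1.

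The 3-Tri saline pups, also taken at day 14, gave the same picture against the PND1 saline pups, which both comparisons share. Log2 fold changes of 3-Tri over PND1 saline were 2.86 for Oprd1, 1.82 for Oprm1, 1.27 for Oprk1 and -0.48 for Oprl1, all past the test, as were 85.1% of the genes. Between the 2 groups of saline pups at day 14, 3-Tri over PND14, the log2 fold changes were 0.00 for Oprm1 (95% interval -0.10 to 0.10), 0.03 for Oprd1 (-0.12 to 0.17), 0.02 for Oprk1 (-0.12 to 0.16) and 0.03 for Oprl1 (-0.04 to 0.10). None of the 4 passed. There edgeR called 0 of 22010 genes, with 723 at an unadjusted p under 0.05, 3 called by DESeq2 and 0 by limma.

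Morphine pups changed between the windows in the same directions. Oprd1 was at 10.0 to 14.8 CPM in 12 PND14 morphine libraries, against 1.37 to 2.52 CPM in 10 PND1 morphine libraries (log2 fold change 2.66). Oprm1 was at 59.3 to 77 CPM against 18.2 to 30.8 CPM in the same groups (log2 fold change 1.62). Neither gene overlapped between the groups, and neither did the remaining receptors. How many of all genes were without overlap was not counted here either. Oprk1 was at 10.4 to 20.4 CPM in PND14 morphine libraries, against 5.61 to 9.12 CPM in PND1 morphine libraries (log2 fold change 1.13), and Oprl1 at 59.1 to 76 CPM against 80.1 to 93.7 CPM (log2 fold change -0.31). All 4 passed the test, as did 83.5% of genes, and 3-Tri over PND1 morphine gave 2.88, 1.65, 1.14 and -0.31 in the same order (83.9% of genes called).

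Levels between genes were compared per kilobase of merged exons, since Oprk1 has the longest and Oprl1 the shortest exons of the 4. In PND14 saline libraries, Oprl1 was highest at 17.7 ± 0.917 CPM per kb (SD, n = 12), then Oprm1 at 9.44 ± 0.501, Oprd1 at 3.56 ± 0.496 and Oprk1 at 1.61 ± 0.165 CPM per kb. In PND1 saline libraries, Oprl1 was at 25.2 ± 1.35 CPM per kb (SD, n = 14), Oprm1 at 2.68 ± 0.288, Oprk1 at 0.675 ± 0.0925 and Oprd1 at 0.499 ± 0.0966 CPM per kb. So per kb Oprl1 led at both ages and Oprm1 came next, whereas Oprd1 and Oprk1 changed places. This order depends on the exon lengths. In CPM, PND14 saline means were 75.9 for Oprm1, 66.3 for Oprl1, 14.7 for Oprk1 and 14.3 for Oprd1. PND1 saline means were 94.7 for Oprl1, 21.6 for Oprm1, 6.18 for Oprk1 and 2.01 for Oprd1, so Oprd1 and Oprk1 did not change places in CPM. At PND1 Oprd1 and Oprk1 lay within each other's range per kb: the log2 ratio of Oprd1 over Oprk1 per kb was 1.14 ± 0.22 (range 0.75 to 1.5) in PND14 saline libraries and -0.45 ± 0.37 (range -1.1 to 0.15) in PND1 saline libraries.

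The receptors' shares of their summed CPM per kb shifted accordingly. Oprl1 made up 54.7% ± 2.16 in PND14 saline libraries and 86.7% ± 1.42 in PND1 saline libraries (mean ± SD). Oprm1 made up 29.3% ± 1.45 against 9.24% ± 1.08 in these groups, Oprd1 11% ± 1.42 against 1.72% ± 0.36 and Oprk1 4.98% ± 0.507 against 2.32% ± 0.322. The nociceptin receptor thus made up most of the summed level at PND1, and the mu and delta receptors took up most of the share it lost. In morphine libraries of PND1, PND14 and 3-Tri, in this order, Oprm1 made up 10.8% ± 1.82, 27.7% ± 1.59 and 27.6% ± 1.42, and Oprl1 84.5% ± 2.5, 57.6% ± 2.23 and 56.5% ± 2.43. Merged exons can be longer than any single transcript, as for Oprm1 with its 31 annotated transcripts, which lowers a value per kb. Oprl1 and Oprk1, with 11 and 5 transcripts, can be affected too, whereas Oprd1 has 1.

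**Figure D2:**
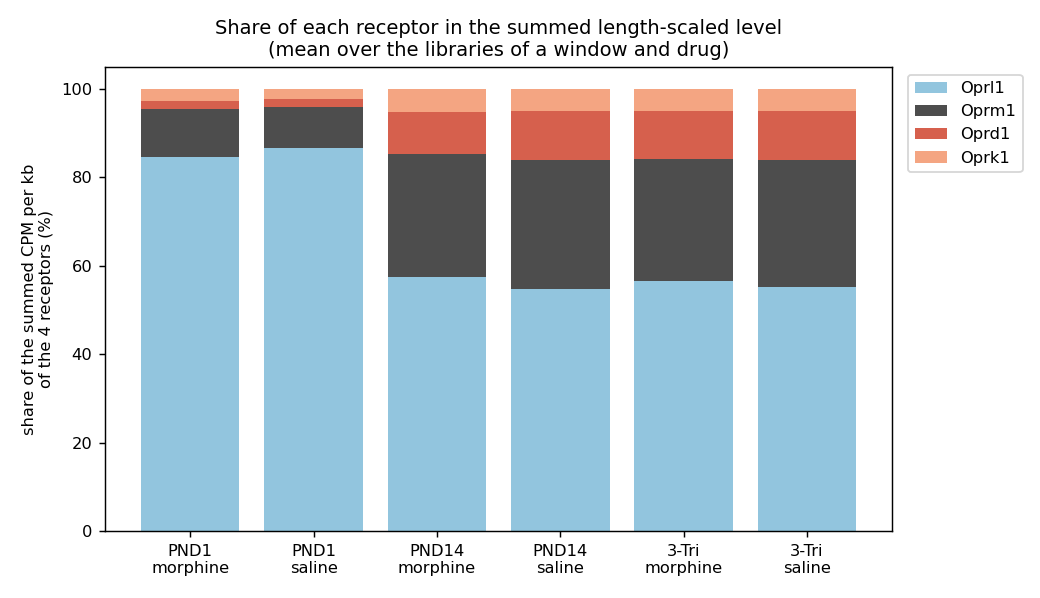
Stacked bars give the mean share (%) of each receptor gene in the summed CPM per kb of the 4 genes, for the libraries of each window and drug. The Oprl1 share is the largest in all 6 bars and smaller in the 4 bars of the PND14 and 3-Tri windows, where the Oprm1 and Oprd1 shares are larger.

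Morphine was compared with saline within each window. At PND1, after exposure through the dam, Oprl1 was the one receptor that passed the test over both gender labels, and it fell with morphine. It was at 90.9, 81.3, 88.3 and 80.3 CPM in the 4 morphine F libraries and at 80.1, 84.5 and 93.7 CPM (lowest, median and highest) in the 6 morphine M libraries. In saline libraries it was at 88.1, 99.4 and 102 CPM for the 7 labelled F and at 87.3, 94 and 96.1 CPM for the 7 labelled M. Of the 10 morphine libraries, 6 were below every saline library and the rest overlapped them. The log2 fold change was -0.15 (SE 0.0322, 95% interval -0.21 to -0.08, 0.903-fold, adjusted p = 0.00305), with 85.6 ± 4.74 CPM in morphine and 94.7 ± 5.05 CPM in saline libraries (SD, n = 10 and 14). In this comparison 16.8% of 21714 genes passed, 9.43% lower with morphine, so a fall of this kind was not rare among genes.

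The other 3 receptors did not pass over both gender labels at PND1. The log2 fold change was 0.16 for Oprk1 (95% interval 0.00 to 0.33, adjusted p = 0.173), 0.10 for Oprm1 (-0.05 to 0.25, adjusted p = 0.385) and -0.06 for Oprd1 (-0.30 to 0.18, adjusted p = 0.772). Within labels, Oprl1 had log2 fold changes of -0.18 in F (adjusted p = 0.157) and -0.12 in M (adjusted p = 0.0643), neither past the test on its own.

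In libraries labelled M, Oprk1 rose with PND1 morphine. It was at 6.07, 7.99 and 9.12 CPM (lowest, median and highest) in the 6 morphine M libraries, against 5.01, 5.98 and 7.1 CPM in the 7 saline M libraries. Of the morphine M libraries, 4 lay above every saline M library and 2 among them. The log2 fold change was 0.39 (SE 0.108, 95% interval 0.17 to 0.61, 1.31-fold, adjusted p = 0.0161), in a comparison where 14.4% of genes passed, 6.31% higher. In libraries labelled F, Oprk1 was at 6.33, 6.53, 6.3 and 5.61 CPM with morphine, against 4.68, 6.62 and 7.43 CPM with saline, and the log2 fold change was -0.07 (95% interval -0.32 to 0.19, adjusted p = 0.881). The difference between those 2 effects, M minus F, was 0.46 (SE 0.164, unadjusted p = 0.00943, adjusted p = 0.871) and did not pass the test. In F, edgeR called 0 of 21714 genes, with 2547 at an unadjusted p under 0.05 and 116 called by DESeq2.

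Levels of hindbrain and spinal cord markers varied widely between the PND1 libraries. The summed level of these 12 genes was 10.8 to 104 CPM in morphine M and 0.338 to 46.1 CPM in saline M libraries, and 1.27 to 31.6 CPM in morphine F and 0.156 to 55.9 CPM in saline F libraries. In M, 2 of 12 passed the test, both higher with morphine (Hoxb8 and Hoxc5, with log2 fold changes of 4.09 and 2.41, named after their values were seen), and the median of the 12 was 1.71, against 0.01 over all genes, of which 6.31% were called higher. In F and over both labels 0 of 12 passed, with medians of -0.49 in F and 0.47 over both. The mean log2 CPM of the 12 markers was also fitted as a covariate, chosen after seeing the data. With it the Oprk1 difference in M was 0.37 (SE 0.118, adjusted p = 0.0603) and no longer passed. The Oprl1 difference over both labels was -0.14 (adjusted p = 0.00927) with the covariate. Whether hindbrain tissue had a part in the receptor differences was not tested. Without morphine M replicate 9, which held the highest Oprk1 level of the group, the Oprk1 difference was 0.33 (adjusted p = 0.062), and corrected for the GC content and length of genes it was 0.26 (adjusted p = 0.132).

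**Figure D3:**
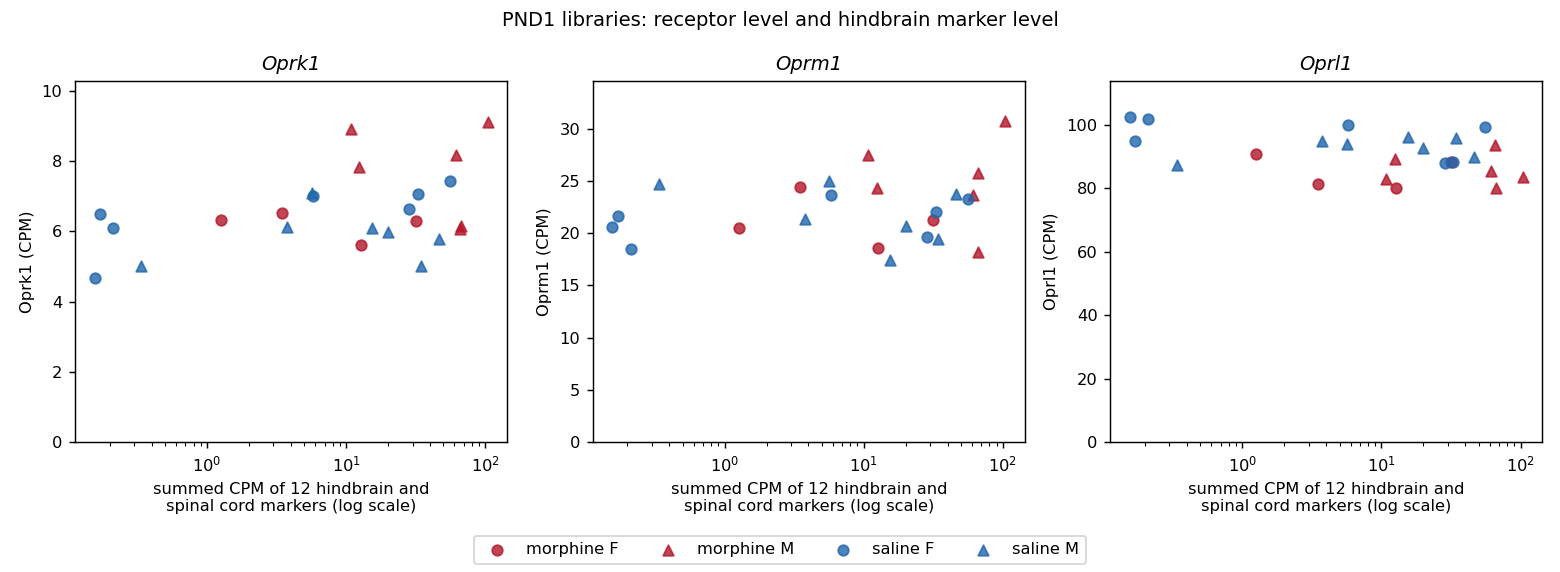
Each point is 1 PND1 library, with the summed level of 12 hindbrain and spinal cord markers (CPM, log axis, horizontal) against the level of Oprk1, Oprm1 or Oprl1 (CPM, vertical). The morphine M libraries lie at 10.8 to 104 CPM of the markers and hold the 4 highest Oprk1 values. Within morphine M, Oprk1 is at 9.12 CPM in the library with 104 CPM of the markers, 8.91 CPM at 10.8 and 6.14 CPM at 66.6. Oprl1 is below the saline libraries in 6 of the 10 morphine libraries.

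Oprm1, the target of morphine, did not pass in M either. It was at 18.2, 25.1 and 30.8 CPM in morphine M libraries, against 17.5, 21.4 and 25 CPM in saline M libraries, and 3 of the 6 morphine libraries were above every saline one. The log2 fold change was 0.20 (95% interval 0.00 to 0.40, adjusted p = 0.159). Morphine M replicate 5 was the lowest of its group at 18.2 CPM, and without it the log2 fold change was 0.28 (adjusted p = 0.0216), past the test. This library went against its gender label, with Xist at 362 CPM and Ddx3y at 0.0428 CPM. In F the log2 fold change was -0.01 (95% interval -0.23 to 0.22). Oprd1 had log2 fold changes of 0.03 in M and -0.15 in F, with 95% intervals of -0.28 to 0.35 and -0.51 to 0.21, the widest of the 4 genes.

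At PND14, after injections from birth, none of the 4 receptors passed between morphine and saline over both gender labels by edgeR, DESeq2 or limma, although 2 were at an unadjusted p under 0.05 in edgeR (1.69% of 19636 genes were called). Oprd1 was at 10.0, 12.1 and 14.8 CPM in the 12 morphine libraries, against 10.7, 14.3 and 16.6 CPM in the 12 saline libraries. The ranges overlapped except for 2 morphine libraries below all saline ones, and the log2 fold change was -0.23 (95% interval -0.38 to -0.07, unadjusted p = 0.00608, adjusted p = 0.126). Oprm1 was at 59.3, 73.3 and 77 CPM in morphine libraries, against 68.9, 75.6 and 82.2 CPM in saline libraries, with a log2 fold change of -0.09 (95% interval -0.17 to -0.02, unadjusted p = 0.0184, adjusted p = 0.203). The 4 morphine libraries below every saline one were all labelled F, where Oprm1 was at 59.3, 65.8 and 76.2 CPM with morphine and 70.4, 75.9 and 82.2 CPM with saline.

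In those F libraries the log2 fold change of Oprm1 was -0.17 (adjusted p = 0.328) and in M libraries -0.02 (95% interval -0.12 to 0.09), where 0.28% of genes passed. The difference of the effects, M minus F, was 0.15 (95% interval 0.00 to 0.30, adjusted p = 1). Oprk1 had a log2 fold change of 0.04 (-0.10 to 0.17) and Oprl1 of 0.06 (-0.01 to 0.13) over both labels. The intervals leave room for a change of up to 0.13 on the log2 scale for Oprl1 and 0.17 for Oprk1. In the same comparison 3 of 5 oligodendrocyte markers were lower with morphine (median log2 fold change -0.39), where 209 of 19636 genes were called lower. The other marker lists are not described for this comparison, and the part of any of them in the receptor values was not tested.

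In 3-Tri pups, none of the 4 receptors passed, and edgeR called 0 of 19730 genes over both gender labels, with 963 at an unadjusted p under 0.05 and 0 called by DESeq2 and 0 by limma. Oprm1 was at 65.9, 71.3 and 82.9 CPM in the 12 morphine libraries, against 68.4, 75.6 and 85 CPM in the 12 saline libraries, with a log2 fold change of -0.07 (95% interval -0.14 to 0.00). Oprd1 was at 12.3, 14.3 and 16.8 CPM against 12, 14.4 and 17.7 CPM in the same groups, with -0.04 (-0.16 to 0.07). Both overlapped almost wholly between drugs. Oprk1 was at 11.8 to 18.8 CPM with morphine and 11.9 to 16.7 CPM with saline, with 0.03 (-0.11 to 0.16), and Oprl1 at 63.1 to 77.1 CPM with morphine and 62.2 to 73.5 CPM with saline, with 0.03 (-0.04 to 0.10). The smallest p by gender label was that of Oprm1 in M, with a log2 fold change of -0.12 (unadjusted p = 0.0196, adjusted p = 0.92), in a window where 12 of 24 libraries went against that label.

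**Figure D4:**
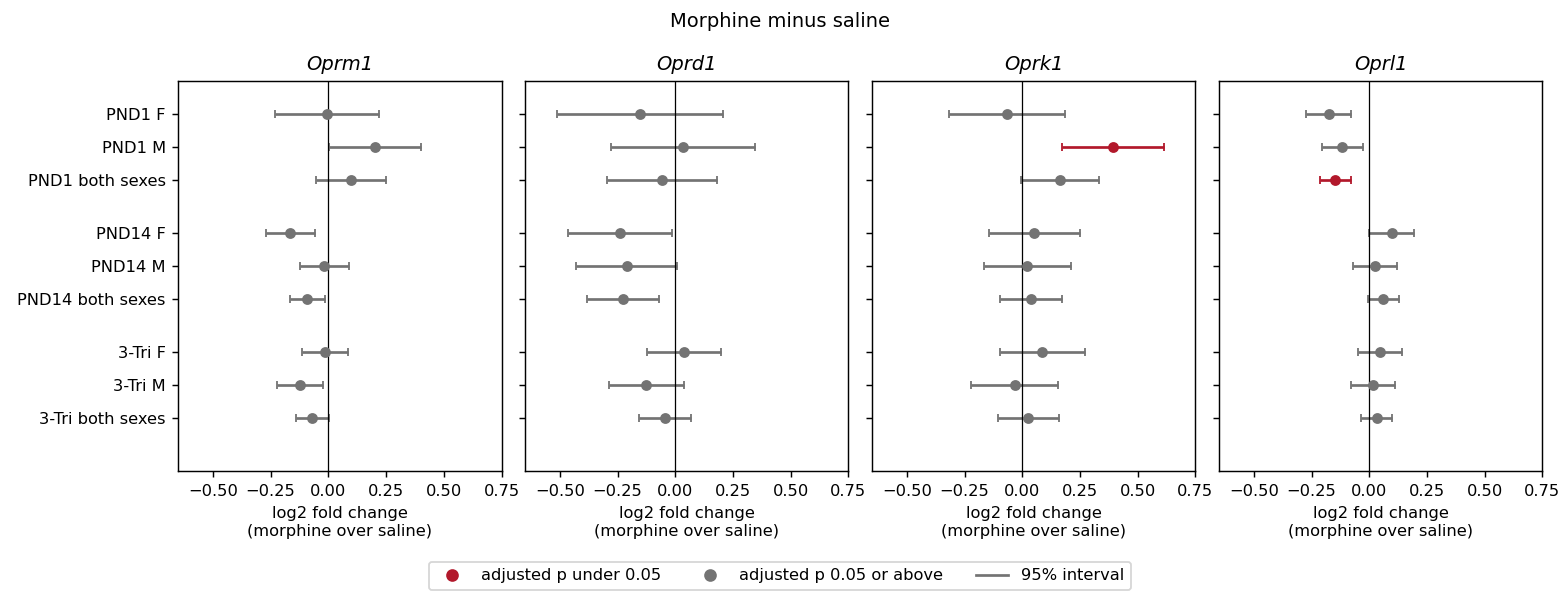
Points are log2 fold changes of morphine over saline for each receptor gene, with 95% intervals, by window and gender label (rows), and red marks an adjusted p under 0.05. The 2 red points are Oprk1 in PND1 M and Oprl1 in PND1 over both sexes, and no receptor is red in the PND14 or 3-Tri rows.

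The morphine effects were then compared between windows in the fit of all 72 libraries, with the PND1 pups shared by both comparisons. Age, route of exposure and set of libraries change together between PND1 and the later windows and cannot be told apart here. The Oprl1 effect differed. The PND14 effect minus the PND1 effect was 0.20 on the log2 scale (SE 0.0469, 95% interval 0.11 to 0.30, adjusted p = 0.00187), where 13.3% of genes passed, and the 3-Tri effect minus the PND1 effect was 0.18 (SE 0.0466, 95% interval 0.08 to 0.27, adjusted p = 0.0101), where 8.43% passed. Behind this stand an Oprl1 mean of 68.7 ± 4.27 CPM with morphine and 66.3 ± 3.44 CPM with saline at PND14, and 69.2 ± 3.91 CPM with morphine and 67.8 ± 3.37 CPM with saline in 3-Tri (SD, n = 12 each), beside the lower morphine level at PND1 given above. For Oprm1 the same differences were -0.19 (95% interval -0.34 to -0.04, adjusted p = 0.0744) and -0.17 (-0.31 to -0.02, adjusted p = 0.154), and they did not pass. Without PND1 morphine M replicate 5 both passed, at -0.23 (adjusted p = 0.012) and -0.20 (adjusted p = 0.0342). The first also passed without morphine F replicate 4, at -0.22 (adjusted p = 0.0447), or saline M replicate 9, at -0.21 (adjusted p = 0.0473). Morphine M replicate 5 and morphine F replicate 4 went against their gender label, and saline M replicate 9 did not. For Oprd1 the same differences of effects were -0.17 and 0.02 and for Oprk1 -0.13 and -0.14, with adjusted p from 0.45 to 0.963.

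The Oprl1 difference between 3-Tri and PND1 depended on single ID numbers: without ID number 4429 it was 0.13 (adjusted p = 0.124) and without 4433 it was 0.12 (adjusted p = 0.264). Between the 2 windows that end at day 14, 3-Tri minus PND14, the differences of the morphine effects were 0.02 for Oprm1, 0.19 for Oprd1 (95% interval -0.02 to 0.39), -0.01 for Oprk1 and -0.03 for Oprl1. None passed, where 0.182% of genes did. Morphine pups alone, 3-Tri over PND14, gave a log2 fold change of 0.21 for Oprd1 (unadjusted p = 0.00501, adjusted p = 0.135, 0.8% of genes called), with 14.2 ± 1.15 CPM in 3-Tri and 12.2 ± 1.49 CPM in PND14 morphine libraries.

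No receptor passed between the gender labels in any window, F minus M with both drugs averaged. At PND1 the log2 differences ran from -0.14 (Oprm1, 95% interval -0.29 to 0.01) to 0.02 (Oprl1, -0.05 to 0.08), where 4.73% of genes passed. At PND14, the window in which no library went against its label, the lowest was -0.14 for Oprk1 (95% interval -0.28 to 0.00, unadjusted p = 0.043, adjusted p = 0.98), where 0.107% of genes passed. Oprk1 means there were 14.1 ± 2.41 CPM in morphine F and 15.8 ± 2.35 CPM in morphine M libraries, and 13.9 ± 1.23 CPM in saline F and 15.5 ± 1.38 CPM in saline M libraries (SD, n = 6 each). In 3-Tri the 4 differences lay between -0.01 and 0.09. There edgeR called 0 of 19730 genes, with 455 at an unadjusted p under 0.05, 2 called by DESeq2 and 0 by limma. In this window 12 of 24 libraries went against their label, so the F and M groups mix both genders. Neither this comparison nor the M minus F difference below can show a gender effect in 3-Tri. The difference of the morphine effect, M minus F, called 0 genes by edgeR and by DESeq2 in each window, and at an unadjusted p under 0.05 it held 1187 genes for PND1, 676 for PND14 and 457 for 3-Tri.

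Genes that varied with each receptor were ranked by Pearson's r of the deviations of log2 CPM from the 12 group means over 72 libraries, among 13924 protein-coding genes at a mean of at least 2 CPM. These are descriptions, since libraries share a depth and a dissection, and neighbours in such a ranking differ by little. Closest to Oprm1 were Atp8a1 (0.80), Ipcef1 (0.80) and Frrs1l (0.79). Closest to Oprd1 were Atrnl1 (0.67), Kif1a (0.65) and Exoc4 (0.64). Closest to Oprk1, whose counts are lower, were Nek1 (0.62), Cfap54 (0.62) and Scn9a (0.61), and closest to Oprl1 were Wdr77 (0.67), Mpdu1 (0.65) and Plrg1 (0.63). Among the receptors themselves, r was 0.48 for Oprm1 with Oprd1, 0.34 for Oprm1 with Oprk1 and 0.07 for Oprd1 with Oprk1. Oprl1 ran against the other 3, at -0.33 with Oprd1, -0.24 with Oprm1 and -0.19 with Oprk1. Ipcef1 overlaps Oprm1 on the other strand and shares exonic bases with it, as given above.

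Over the 12 group means, which mostly contrast day 1 with day 14, r reached values near 1 for many genes. The 3 closest were Dnal1 (0.999), Scn2a (0.999) and Smim13 (0.999) for Oprm1, Ttll7 (1.000), Pura (0.999) and Ankrd40 (0.999) for Oprd1, Tmem196 (0.996), Lrrtm3 (0.996) and Ctnna3 (0.996) for Oprk1 and Hyal2 (0.991), Hilpda (0.990) and Pqlc1 (0.990) for Oprl1. Scn2a, a voltage-gated sodium channel of neurons, is thus among the genes whose group means ran most like those of the mu receptor.

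The overlapping genes and the nearest protein-coding genes on each side of the receptors, some of them far away, changed by other amounts. Ipcef1, which overlaps Oprm1, was at 53 ± 2.99 CPM in PND14 saline libraries and 6.99 ± 0.78 CPM in PND1 saline libraries (log2 fold change 2.92). Cnksr3 (80865 bases away) and Rgs17 (836106 bases away), the other expressed neighbours of Oprm1, had log2 fold changes of 2.17 and 1.01. All 3 were higher at PND14, as were Oprm1 and 41.7% of all genes tested. Beside Oprd1, Ythdf2, which reads N6-methyladenosine in mRNA, was at 45.1 ± 4.09 CPM in PND14 saline libraries and 54.1 ± 2.96 CPM in PND1 saline libraries (log2 fold change -0.27), opposite to Oprd1. On the 2 sides of Oprk1, Atp6v1h (425937 bases away) and Npbwr1 (307576 bases away) had log2 fold changes of 0.47 and 0.85. Beside Oprl1, Myt1, a zinc finger factor of the neural lineage, was at 24.3 ± 2.32 CPM in PND14 saline libraries and 60.1 ± 4.69 CPM in PND1 saline libraries (log2 fold change -1.31). Rgs19, a regulator of G protein signalling added as a gene near Oprl1, had 0.27, opposite to Oprl1.

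The rest of the opioid pathway, 43 genes in 9 lists, was set beside the receptors in the saline comparison of PND14 with PND1. Of the 43, 28 were higher, 11 lower and 4 did not pass, and their median log2 fold change was 0.59, against -0.02 over all 22010 genes, of which 84.9% passed (41.7% higher and 43.2% lower). The counts of called members in the lists below stand against these shares, and most genes of any list pass this comparison. Among the peptide precursors, Penk (enkephalins) had a log2 fold change of 2.29 and Pdyn (dynorphins, the ligands of the kappa receptor) of 1.61. Pomc (beta-endorphin) rose by 0.59, whereas Pnoc, which encodes the ligand of Oprl1, was at -0.07 and did not pass. So ligand and receptor transcripts were both higher at PND14 in the enkephalin and dynorphin systems, and the nociceptin system had a lower receptor level with no call for its precursor. Of the 6 genes of peptide processing and degradation, 4 rose and 1 fell: Pcsk1 and Pcsk2, the prohormone convertases, had 2.77 and 2.01, and Dpp3, a peptidase that degrades enkephalins, -0.19.

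Of the signalling genes, 4 of 5 inhibitory G protein alpha subunits rose, led by Gnai1 (0.93) and Gnao1 (0.71), and Gnai3 fell (-1.03). Of 6 effector channels, 5 rose, among them Kcnj9 (3.08) and Kcnj3 (1.96), subunits of the potassium channels that opioid receptors open, and the calcium channel gene Cacna1b fell (-0.28). Kcnj9 moved by more than any receptor. Of 4 adenylyl cyclases, Adcy5 (1.18), Adcy1 (1.28) and 1 more rose and Adcy6 fell (-0.76). Of 5 RGS genes, which shorten G protein signals, 4 rose and 0 fell, with Rgs4 at 2.56 and Rgs20 at 1.49. Of 6 receptor kinases and arrestins, 3 rose and 2 fell: Arrb1 (0.82) and Grk2 (0.60) were higher, Arrb2 (-0.28), needed for mu receptor desensitization in mice, and Grk3 (-0.11) lower.

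Receptor partners were mixed, with 2 of 5 higher and 3 lower. Gpm6a, a membrane glycoprotein that binds the mu receptor, had a log2 fold change of 0.94 and Wls, another mu receptor partner, of 0.32. Flna, the actin crosslinker filamin A, had -2.0 and Rtp4, a chaperone that carries mu and delta receptor dimers to the membrane, -0.66. Both other proteins known to bind opioid peptides fell, Ogfr (-0.30) and Ackr3, a scavenger of them (-0.34). Between morphine and saline, 2 of the 43 rose at PND1 over both labels, Pcsk2 (0.15) and Rgs7 (0.13), and 4 fell, Adcy6 (-0.24), Grk6 (-0.18), Ogfr (-0.16) and Dpp3 (-0.12), in a comparison where 16.8% of all genes passed. In M at PND1, 4 rose and 5 fell, where 14.4% of all genes passed, so that in neither comparison are these counts a result about the pathway. By edgeR none of the 43 passed in PND1 F, or over both labels at PND14 or in 3-Tri.

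**Figure D5:**
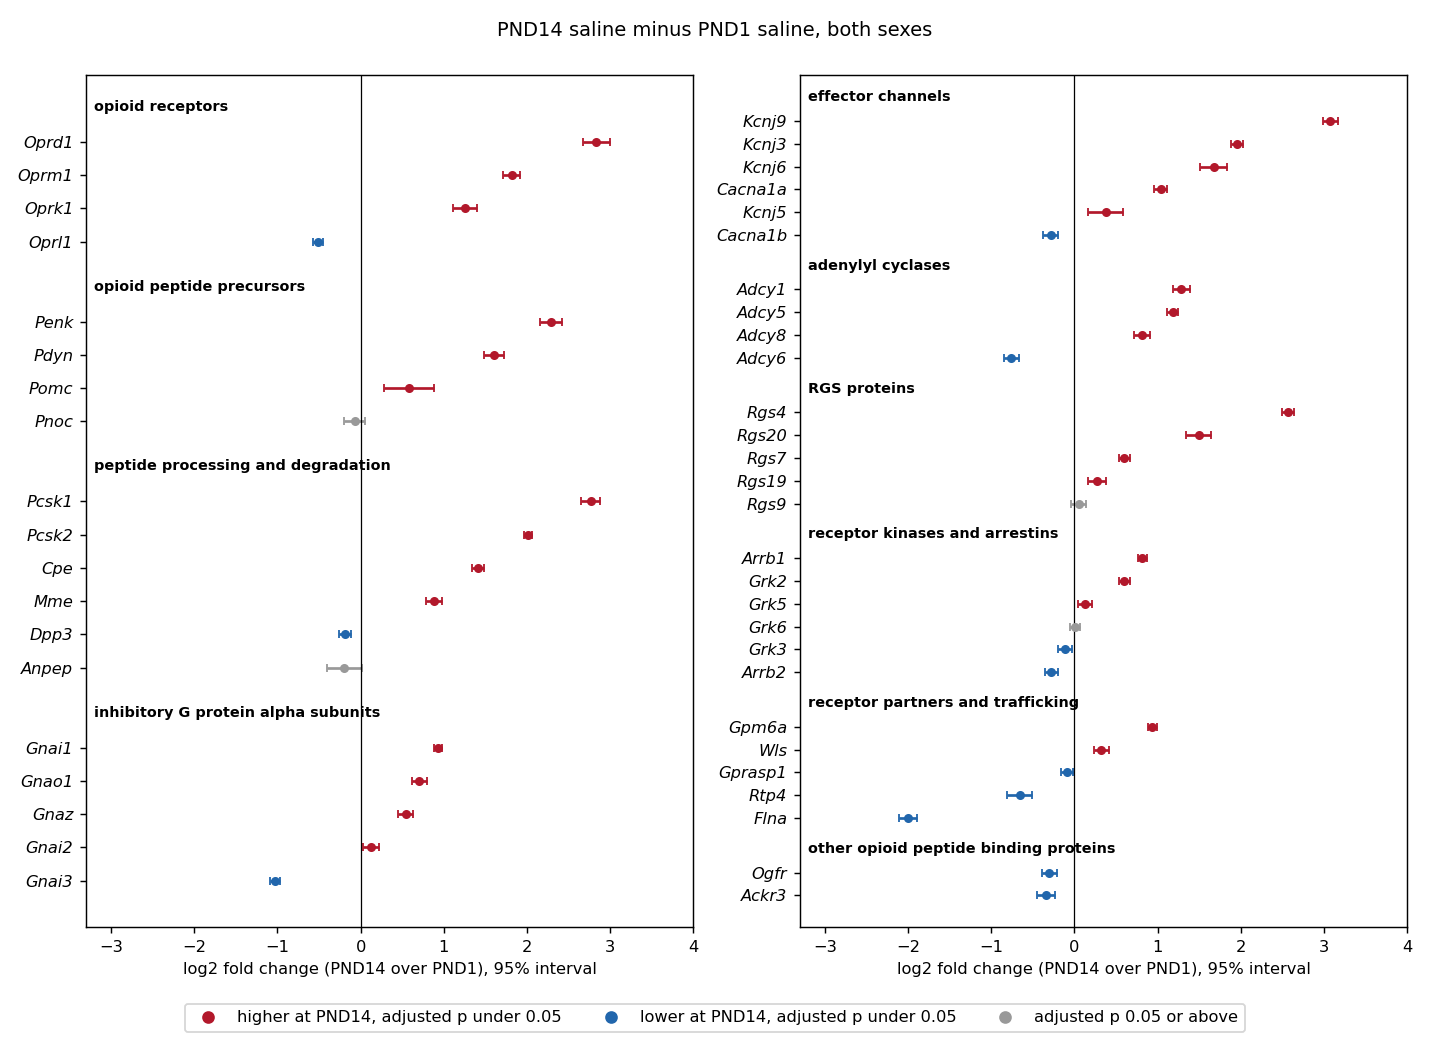
Points are log2 fold changes of PND14 over PND1 saline pups with 95% intervals, for the 4 receptors and the 43 other pathway genes grouped by role, coloured by direction where the adjusted p is under 0.05. Oprd1 (2.83), Oprm1 (1.82) and Oprk1 (1.25) lie right of 0 and Oprl1 (-0.52) left of it, and the precursors Penk and Pdyn lie right of it.

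Cell type markers also differed between the saline groups, in which 84.9% of all genes passed the test. At PND14, 5 of 5 oligodendrocyte markers (median log2 fold change 5.81), 5 of 5 microglial markers (1.91), 3 of 4 astrocyte markers (2.45) and 6 of 7 striatal markers (1.67) were higher, and 4 of 4 markers of neural progenitors and new neurons were lower (-2.36). All 12 hindbrain and spinal cord markers were lower (-5.15), with sums of 0 to 1.66 CPM in PND14 and 0.156 to 55.9 CPM in PND1 saline libraries. The part of these cell types and regions in the receptor differences was not tested.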

How the data were processed

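RNA of the right brain hemisphere of 72 pups was sequenced from NEBNext Ultra II libraries. Raw counts per gene were deposited by the authors in 1 matrix, after trimming (Trim Galore 0.6.6), alignment (HISAT2 2.2.1, mm10), removal of duplicates and counting (featureCounts 2.0.1, GENCODE M25 per the study's methods). Coordinates and exon lengths here are from GENCODE M21. Removing duplicates can lower the counts of high genes most. The authors' tables of DESeq2 fold changes and p-values were used only for gene symbols. All 72 columns matched a sample, and 0 rows named no gene.

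Counts were tested in R 4.3.3 with edgeR 4.0.16 (TMM, filterByExpr with a minimum count of 10 and total of 15, quasi-likelihood F test, Benjamini-Hochberg over all genes tested), fitting the 4 groups of a window together, or all 12 groups of 72 libraries for comparisons between windows. A call had an adjusted p under 0.05, and an SE is the log2 fold change divided by the root of its F statistic. Alternatives were DESeq2 1.42.0, limma 3.58.1 with the ID number as a random effect, DESeq2's size factors, no filter, a GC content and gene length correction, the replicate number as a block, smaller fits, and fits without single libraries, ID numbers, shallow libraries or those against their gender label. Members and lists were chosen with earlier results of these data known. Named besides the receptors were the overlapping and nearest genes with Rgs19 added, the 3 most alike genes, all 4 precursors and, of each other list, up to 2 members in each direction with the smallest p. Plots used Python 3.11.15 and matplotlib 3.10.9. The tests were tried on simulated data.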

Additional observations from a re-analysis of the deposited data

Results flagged for a closer look

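Single libraries were screened with Dixon's test in the 48 sets of 4, 6 or 7 libraries formed by 12 groups and 4 receptors, of which chance picks out about 1 in 20, and 2 stood apart. The Oprk1 level of PND14 morphine M replicate 3 was 20.4 CPM, with the other 5 libraries of its group at 13.7 to 15.8 CPM. That library held 9516426 counts in total. The Oprm1 level of 3-Tri morphine M replicate 2 was 65.9 CPM, with the other 5 at 70.5 to 71.9 CPM.

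The effect of morphine on Oprl1 differed between windows by the test of the difference itself. It was 0.20 on the log2 scale for PND14 minus PND1 and 0.18 for 3-Tri minus PND1. Both comparisons use the same PND1 libraries, in 6 of whose 10 morphine pups Oprl1 was below every saline pup.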

How the results depend on the processing

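Of 104 receptor differences under all alternatives, giving 3038 values, 6 changed their side of the threshold in at least 1 alternative and none that was called reversed. The call of Oprk1 in PND1 M was lost with the replicate block at 0.39 (SE 0.135, adjusted p = 0.082), with its size about the same. At PND1 equal replicate numbers join some morphine M with saline F libraries, so this block cannot say how the rise holds between paired pups. The call was also lost with the GC content and gene length correction at 0.26 (adjusted p = 0.132), and with the block and that correction together at 0.21 (adjusted p = 0.409). With the hindbrain marker covariate, chosen after seeing the data, the value was 0.37 (adjusted p = 0.0603), also not past the threshold. Leaving out single PND1 libraries gave 0.33 to 0.45, and the call was lost without morphine M replicate 9. The Oprl1 difference in PND1 M passed without the libraries against their gender label at -0.15 (adjusted p = 0.0203), and leaving out single libraries gave -0.14 to -0.10, past the threshold without morphine M replicate 5, saline F replicate 5 or saline M replicate 12. The Oprm1 difference in PND1 M ranged over 0.12 to 0.28 and passed without morphine M replicate 5. Morphine M replicate 5 and saline F replicate 5 went against their gender label, and saline M replicate 12 did not.

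The Oprm1 morphine effect of PND14 minus PND1 passed in DESeq2 at -0.20 (adjusted p = 0.0399) and without the libraries against their label at -0.25 (adjusted p = 0.0202), and was -0.08 (adjusted p = 0.527) with the replicate block and the GC content and gene length correction together. It ranged over -0.23 to -0.15 when single libraries were left out. It passed without PND1 morphine F replicate 4 or morphine M replicate 5, both against their gender label, or saline M replicate 9, which was not. That of 3-Tri minus PND1 ranged over -0.20 to -0.13 and passed without PND1 morphine M replicate 5. The Oprl1 morphine effect of 3-Tri minus PND1 was lost without the libraries against their label at 0.22 (adjusted p = 0.0856), without ID number 4429 at 0.13 (adjusted p = 0.124) and without 4433 at 0.12 (adjusted p = 0.264). The cause of these changes was not tested, and the fits without libraries hold fewer samples.

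Counts of genes called, over all genes tested, moved by more than 1.5 times in 10 comparisons, given with their lowest and highest value over the alternatives. Between morphine and saline they were 3124 (102 to 4944) in PND1 M, 3653 (1516 to 5029) over both labels at PND1, 55 (0 to 196) in PND14 M and 332 (0 to 644) over both labels at PND14. For differences of the morphine effect they were 2931 (1693 to 3808) for PND14 minus PND1, 1855 (50 to 2472) for 3-Tri minus PND1 and 40 (0 to 72) for 3-Tri minus PND14. They were 1026 (0 to 2754) and 21 (11 to 25) for F minus M at PND1 and PND14, and 176 (2 to 587) for morphine pups of 3-Tri against PND14. Where no gene was called, alternatives reached at most 116 genes for morphine minus saline in PND1 F, 21 in PND14 F and 1 each in 3-Tri F and M, 15 for F minus M in 3-Tri, 3 for saline 3-Tri minus PND14 and 1 for the M minus F difference of the morphine effect at PND1. Whether equal replicate numbers pair the libraries was not settled. The correlation of deviations between libraries of equal number ran over -0.14 to 0.29 in PND1 (median -0.04), -0.38 to 0.19 in PND14 (median -0.10) and -0.15 to 0.47 in 3-Tri (median 0.17). Of 10, 12 and 12 pairs in this order, 1, 1 and 4 correlated best with their own number, and 2, 5 and 8 were above 0.1. At PND1 some pairs joined morphine M with saline F libraries, so a pairing within a gender was only partly checked.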
